A study of Mus musculus with 6 samples.

Results

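The genes described here are 10 that sense DNA double-strand breaks and carry the signal from ATM to CHEK2: Atm, Chek2, Nbn, Mre11a, Rad50, Mdc1, H2afx, Trp53bp1, Rnf8 and Rnf168. They were taken by name from a table of 49315 genes, where each has 1 row, and all 10 passed the filter on low counts that left 16060 genes to test. RNA had been sequenced from GV oocytes, which are fully grown but still arrested with an intact nucleus, the germinal vesicle, of 3 Rpa1 OcKO mice and 3 Control mice. In OcKO mice Rpa1, the large subunit of the single-strand DNA binding protein RPA, is deleted conditionally and only in the oocyte. Mice of both groups were 4 to 5 weeks old and primed with PMSG, a gonadotropin that makes follicles grow, and each library pooled about 20 oocytes of 1 mouse, stripped of cumulus cells. Which Cre driver was used, and which alleles Control mice carry, the sources used here do not state. The series concerns the part of RPA1 in the repair of DNA damage while oocytes form.

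A double-strand break is first bound by the MRN complex of MRE11, RAD50 and NBS1, which recruits and activates the kinase ATM. ATM phosphorylates the histone variant H2AX around the break, MDC1 binds this mark, and the ubiquitin ligases RNF8 and RNF168 follow and prepare the chromatin for 53BP1. ATM also activates the kinase CHEK2, which in mouse oocytes of primordial and growing follicles phosphorylates p63 and so can eliminate damaged oocytes. Much of this pathway works by phosphorylation and ubiquitination of proteins already present, which counts of RNA do not measure.

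Since each library is a pool, fewer cells of a type and less RNA per cell cannot be told apart. The libraries held 36280148 to 44575222 counts in OcKO and 36612443 to 41402926 in Control. The check of the deleted gene followed the labels: Rpa1 averaged 6.25 CPM in OcKO and 150.2 CPM in Control, where CPM is the count scaled to the library's total after TMM normalization (log2 fold change -4.59, edgeR adjusted p = 0.0064). Markers of the oocyte such as Gdf9 and Zp3 summed to 26832 to 33735 CPM in OcKO and to 30078 to 46502 CPM in Control. All 12 oocyte markers were tested and 0 were called. Their log2 fold changes were positive for 3 and negative for 9, with a median of -0.28 against 0.01 for all tested genes. For 4 of them every OcKO library was below every Control library, which held for 8.67% of all tested genes. The 14 granulosa and cumulus markers summed to 214 to 255 CPM in OcKO and 167 to 207 CPM in Control (exact permutation test, two-sided, p = 0.1, the smallest that 3 against 3 libraries can give). That separation is given for sums without TMM only. The TMM factors were 1.04, 1.02 and 1.12 in OcKO and 0.963, 0.917 and 0.949 in Control. Dividing by them lowers every OcKO sum and raises every Control sum, and sums scaled in that way were not tested. Of the 14 granulosa and cumulus markers, 10 passed the filter and 0 were called, with 6 positive and 4 negative log2 fold changes. Esr2 gave 93.1 to 129.6 CPM in OcKO and 103.6 to 131 CPM in Control, Nr5a2 23.98 to 39.04 CPM in OcKO and 12.5 to 34.2 CPM in Control, and Cyp19a1 8.27 to 29.8 CPM in OcKO and 19.3 to 35.05 CPM in Control. Inha averaged 26.5 ± 15.3 CPM in OcKO and 12.7 ± 2.26 CPM in Control (SD, n = 3), a larger difference between means than that of any other marker on the list. Ptx3 was at 0 in every library, Foxl2 at up to 0.0492 CPM in OcKO and 0 in Control, and Has2 at up to 4.45 CPM in OcKO and 0 in Control. The 15 markers of other ovarian cells summed to 106 to 133 CPM in OcKO and 90.7 to 131 CPM in Control, most of it Pecam1. Of these 15, 10 passed the filter and 0 were called, with 4 positive and 6 negative log2 fold changes. The groups did not overlap for 1, Cyp17a1, at 0.457 to 0.763 CPM in OcKO and 0 in Control (edgeR adjusted p = 0.120). Such separation on the higher side was found for 10.7% of all tested genes. Genes with at least 1 count numbered 19915 to 22393 in OcKO and 18330 to 19351 in Control (exact two-sided permutation p = 0.1). Their part in the results below was not tested.

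None of the 10 genes was called different between OcKO and Control oocytes by edgeR's quasi-likelihood test at a Benjamini-Hochberg adjusted p under 0.05 over all tested genes, and their adjusted p-values ran from 0.373 to 0.968. Of all tested genes, 0.143% were called, 0.137% higher in OcKO and 0.00623% lower. At an unadjusted p under 0.05 there was 1 member, Trp53bp1 on the lower side, where 11.1% of all tested genes passed, 5.21% lower and 5.93% higher. DESeq2 called 0 members and 4.7% of the genes it tested, and limma voom called 0 members and 0.00623% of all genes. The members' log2 fold changes lay between -0.52 and 0.25, with a median of -0.27 against 0.01 for all tested genes. They were negative for 8 of 10, where 49.2% of all tested genes were negative. Scaling by library size without TMM gave the members a median of -0.10, and it shifted the median over all genes by 0.17. The members' median was -0.04 without OcKO replicate 3 and -0.13 without Control replicate 2.

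**Figure D1:**
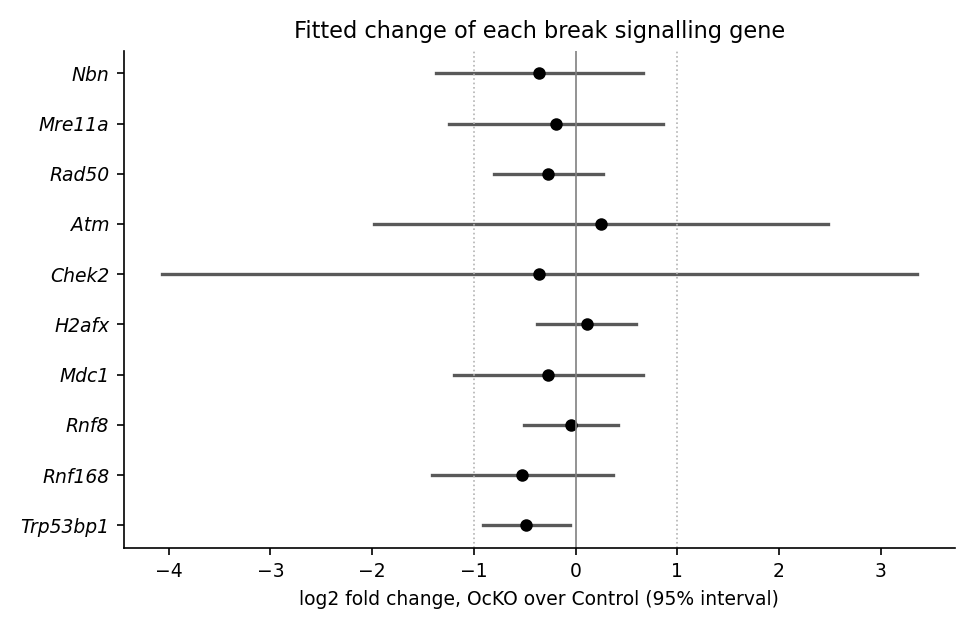
Fitted log2 fold change (OcKO over Control) of the 10 break signalling genes with its 95% interval, dotted lines marking a doubling and a halving. The interval of Trp53bp1 alone leaves out 0, and those of Atm and Chek2 are the widest of the 10, from -1.99 to 2.48 and from -4.07 to 3.36.

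How large a change the data leave possible differed from gene to gene. For Rad50, H2afx, Trp53bp1 and Rnf8 the 95% interval of the log2 fold change stayed within 1 in either direction, that is within a doubling or a halving. Counting only increases, the interval stayed under a doubling for 8 of the 10, all but Atm and Chek2.

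Of the MRN genes, Rad50 stood well above Mre11a and Nbn in both groups, and none was called. Rad50, the large coiled-coil ATPase of the complex, held 202, 202 and 165 CPM in OcKO replicates 1 to 3, against 296, 213 and 175 CPM in Control replicates 1 to 3. The highest value was that of Control replicate 1 and the groups overlapped (log2 fold change -0.27, SE 0.23, edgeR adjusted p = 0.758). Without Control replicate 1 the log2 fold change of Rad50 was -0.04.

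Mre11a, the nuclease subunit, held 36.3, 64.7 and 33.2 CPM in OcKO and 23.7, 66.7 and 62.8 CPM in Control. Each group had low and high libraries, with the lowest and the highest value both in Control (log2 fold change -0.19, SE 0.45). Nbn, which encodes the ATM-binding subunit NBS1, held 15.5, 23.1 and 8.34 CPM in OcKO and 19.4, 21.8 and 18.7 CPM in Control. The Control libraries lay close together and inside the range of the OcKO libraries, whose lowest was replicate 3 (log2 fold change -0.36, SE 0.44, and -0.05 without that library).

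Levels of different genes are compared per kilobase of exon, as RPKM from the TMM-scaled counts. Rad50 stood at 35.3 ± 3.97 RPKM in OcKO and 42.4 ± 11.6 RPKM in Control (SD, n = 3). Mre11a stood at 7.55 ± 2.93 and Nbn at 6.17 ± 2.90 RPKM in OcKO, against 8.62 ± 4.01 and 7.89 ± 0.649 RPKM in Control. The Rad50 to Mre11a ratio was 6.12, 3.45 and 5.48 in OcKO libraries and 13.8, 3.52 and 3.07 in Control libraries. Its mean log2 value was 2.29 in OcKO and 2.41 in Control, a difference below the spread between libraries (exact two-sided permutation p = 0.9). The Rad50 to Nbn ratio was 4.14 to 9.32 in OcKO and 4.41 to 7.20 in Control (exact two-sided permutation p = 0.7). Mre11a and Nbn were near parity in most libraries, with ratios of 1.00, 1.20 and 1.70 in OcKO and 0.522, 1.31 and 1.44 in Control (exact two-sided permutation p = 0.7). In all 6 libraries Rad50 RNA was thus the most abundant of the complex per length. Adjusted over the 3 ratios, each exact permutation p was 0.9.

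**Figure D2:**
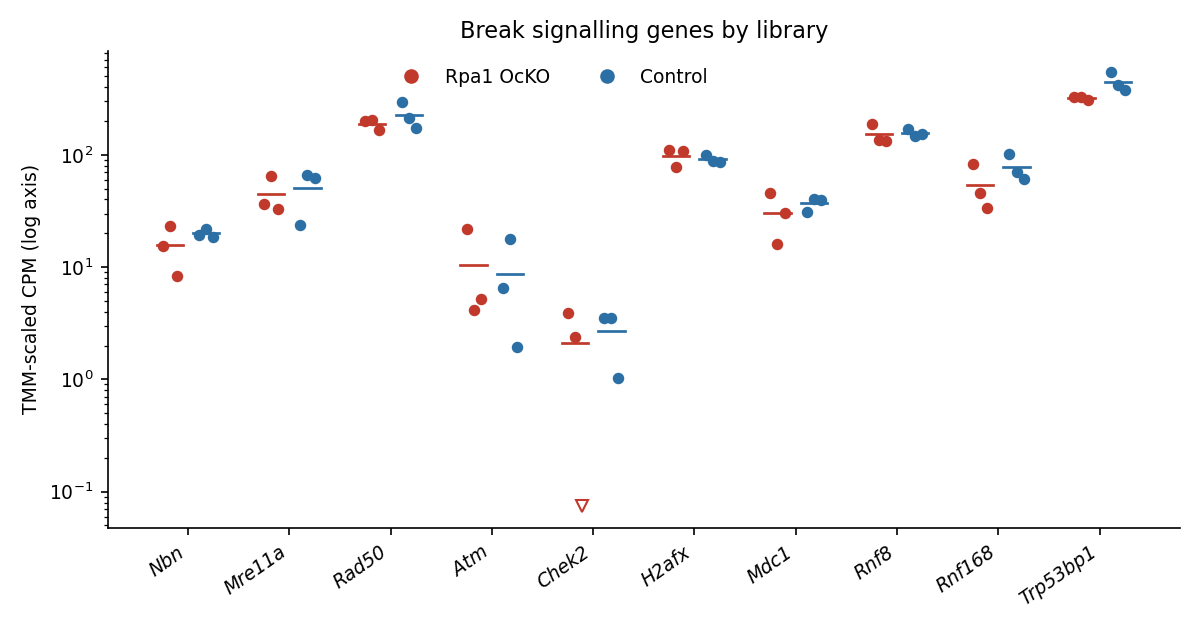
TMM-scaled CPM of each break signalling gene in each library on a log axis, OcKO left of Control, points for libraries and bars for group means. Only Trp53bp1 has all OcKO points below all Control points, and the open triangle marks the 3-count limit of OcKO replicate 3, where Chek2 had 0 counts.

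The 2 kinases at the centre of the route, Atm and Chek2, were the least abundant of the 10 and the least even between libraries. Atm held 961, 187 and 210 counts in OcKO, or 21.9, 4.11 and 5.17 CPM, against 238, 675 and 67 counts in Control, or 6.56, 17.8 and 1.93 CPM. One library in each group stood well above the others, OcKO replicate 1 and Control replicate 2, and the groups overlapped. The highest library was 11.4 times the lowest. The log2 fold change of 0.25 (SE 0.96) had an interval from -1.99 to 2.48, and its sign rested on single libraries: it was -0.92 without OcKO replicate 1, -0.21 without Control replicate 3 and 1.33 without Control replicate 2.

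Chek2 had 172, 108 and 0 counts in OcKO and 128, 133 and 36 counts in Control. In CPM these are 3.93, 2.38 and 0 in OcKO, against 3.53, 3.51 and 1.04 in Control. OcKO replicate 3 had no Chek2 count among 36280148, which allows a level up to 0.0738 CPM (3 counts, counting error only). The other OcKO libraries lay within or just above the Control range. The log2 fold change was -0.36 with an SE of 1.59, and 0.23 without OcKO replicate 3. A difference in Chek2 between the groups was not detectable in these libraries, and its interval reaches from -4.07 to 3.36.

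This unevenness was set beside that of genes of like abundance, those within 2-fold of the same mean CPM. The within-group SD of log2 CPM was 1.45 for Atm, above that of 83.8% of 3339 genes of its level, whose median was 0.73. For Chek2 it was 2.54, above that of 79.6% of 3205 genes, whose median was 1.4998. The Chek2 value includes OcKO replicate 3 with 0 counts, whose log2 CPM is set by the prior count of 2. Mre11a (0.70, above 89.3% of genes of its level) and Rnf168 (0.55, above 81.9%) were also on the uneven side, while H2afx (0.22, above 18.4%), Rnf8 (0.21, above 21.9%) and Trp53bp1 (0.19, above 27.4%) were on the even side. Each pool held the oocytes of 1 mouse, so differences between animals, between oocytes and from the making of the library are all in this spread.

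**Figure D3:**
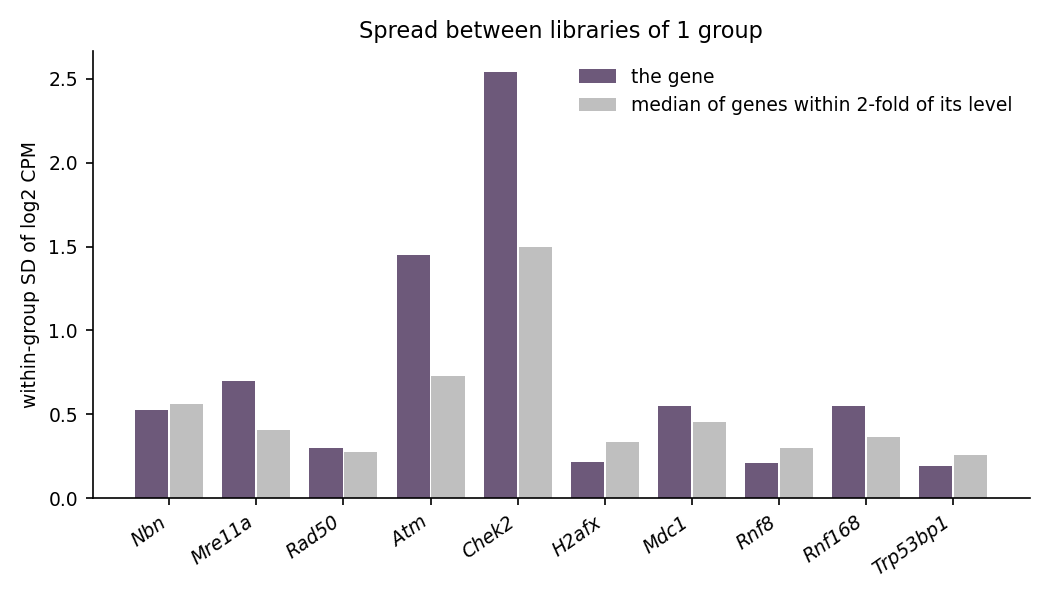
Within-group SD of log2 CPM for each break signalling gene (purple) beside the median of genes within 2-fold of its mean CPM (grey). Atm at 1.45 and Chek2 at 2.54 are the least even of the 10 genes. Their neighbours in level are also less even than abundant genes. The Chek2 value includes OcKO replicate 3 with 0 counts.

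Within each group 1 library tended to be low. OcKO replicate 3 had the lowest CPM of its group for 7 of the 10 genes and the highest for 0, and Control replicate 3 likewise for 7 and 0. OcKO replicate 1 was highest of its group for 7 and Control replicate 1 for 6. These counts cover the 10 members only. The same shares over all tested genes were not counted, so the pattern is not shown to be particular to the members. The replicate numbers name separate mice, and the labels state no pairing of libraries across groups.

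Atm, Chek2, Mre11a and H2afx each start close to the start of a gene on the opposite strand, and the first exons of Mre11a and its partner share bases. H2afx starts 308 bases from Gm48853, which had 68 counts over the 6 libraries, and shares 141 exonic bases, 10.2% of its length, with Gm44335, which had 0 counts. The promoter windows of Atm, Chek2 and Mre11a are printed below. Those of Atm and Mre11a do not reach the start of the gene on the opposite strand. The printed sequences are RefSeq windows of GRCm38.p6 of 300 bases, 250 before to 50 after the start. They lie at chr9:53536622-53536921 (minus strand, Atm), chr5:110839733-110840032 (plus, Chek2) and chr9:14784404-14784703 (plus, Mre11a), and capitals mark the CCAAT box (CCAAT) and the GC box (GGGCGG) on either strand. The Chek2 window has no GC box.
Atm: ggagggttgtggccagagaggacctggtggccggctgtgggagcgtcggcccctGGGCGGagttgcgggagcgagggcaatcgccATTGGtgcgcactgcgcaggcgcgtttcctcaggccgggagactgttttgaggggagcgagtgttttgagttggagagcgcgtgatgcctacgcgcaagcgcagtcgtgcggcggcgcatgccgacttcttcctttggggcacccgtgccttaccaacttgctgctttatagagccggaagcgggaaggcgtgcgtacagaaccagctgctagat
Chek2: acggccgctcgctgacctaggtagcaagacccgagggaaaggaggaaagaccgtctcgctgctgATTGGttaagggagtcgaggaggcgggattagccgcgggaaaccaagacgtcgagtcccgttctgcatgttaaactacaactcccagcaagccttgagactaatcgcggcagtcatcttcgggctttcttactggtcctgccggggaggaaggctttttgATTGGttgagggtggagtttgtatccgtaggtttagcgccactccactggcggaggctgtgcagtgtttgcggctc
Mre11a: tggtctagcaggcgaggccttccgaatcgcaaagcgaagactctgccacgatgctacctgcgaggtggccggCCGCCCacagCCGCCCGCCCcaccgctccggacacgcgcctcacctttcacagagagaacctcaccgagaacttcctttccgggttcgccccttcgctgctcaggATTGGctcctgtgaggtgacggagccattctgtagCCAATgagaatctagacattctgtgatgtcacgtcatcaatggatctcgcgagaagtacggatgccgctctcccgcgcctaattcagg
Windows were found for 7 of the 10 genes. A CCAAT box was present in 5 of 7, against 37.4% of 32851 windows, and a GC box in 6 of 7, against 35.7%. The E box CACGTG was found in 0 of 7 (7.15% of all windows), the E2F form TTTGGCGC in 0 of 7 (0.514%) and the E2F form TTTCCCGC in 2 of 7, Chek2 and Mdc1 (1.07%). A p53 half-site, searched as a pattern of allowed bases that reads the same on both strands, was found in 0 of 7 windows, against 8.36% of all. Of 18 matches to the spelled-out motifs in the 7 windows, 0 pairs of different motifs shared bases. A match says only that these letters occur there.

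Per exon length Npat stood at 5.58 ± 2.01 RPKM in OcKO and 4.62 ± 0.351 RPKM in Control, and Hscb at 35.03 ± 1.86 RPKM in OcKO and 34.9 ± 7.86 RPKM in Control, both above their partners Atm and Chek2. Npat, whose product activates histone genes and whose start lies 307 bases from that of Atm, held 45.6, 37.9 and 21.1 CPM in OcKO and 31.1, 28.6 and 26.8 CPM in Control. In OcKO replicate 1, where Atm was high, Npat was also the highest of its group, and in Control replicate 2, the other library with high Atm, it was in the middle of its group. Hscb, which encodes a cochaperone of iron-sulfur cluster assembly and starts 202 bases from Chek2, held 30.8, 30.7 and 33.6 CPM in OcKO and 28.1, 27.0 and 39.8 CPM in Control. OcKO replicate 3, with no Chek2 count, had 1367 counts of Hscb. Ankrd49, an ankyrin repeat gene whose start lies 202 bases from that of Mre11a and which shares 154 exonic bases with it, held 32.8, 100.9 and 47.0 CPM in OcKO and 41.4, 44.5 and 62.7 CPM in Control. None of these 3 was called (edgeR adjusted p of 0.851, 0.999 and 0.889).

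Chromosome 9 carries 3 of the 10 genes. In the deposited GRCm38 coordinates Atm spans 53439149 to 53536740 on its minus strand, Mre11a 14784654 to 14837123 and H2afx 44334694 to 44336077, both on the plus strand. Chek2 lies on chromosome 5 (110839979 to 110874145, plus) and Trp53bp1 on chromosome 2 (121193281 to 121271407, minus). Nbn lies on chromosome 4 (15957925 to 15992589, plus), Rad50 on chromosome 11 (53649519 to 53707319, minus) and Rnf168 on chromosome 16 (32277459 to 32301434, plus). Chromosome 17 carries Mdc1 (35841515 to 35859670) and Rnf8 (29614790 to 29641664), both on the plus strand. H2afx is a single exon of 1384 bases, while Atm has 63 separate exonic blocks over 97592 bases.

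Among the genes of the chromatin response, H2afx was even and abundant. H2afx, which encodes the histone variant that ATM phosphorylates at breaks, held 109.5, 77.1 and 108 CPM in OcKO and 99.1, 87.5 and 86.0 CPM in Control. The OcKO libraries lay on both sides of the Control libraries (log2 fold change 0.11, SE 0.21, edgeR adjusted p = 0.911). Its interval from -0.38 to 0.60 corresponds to a ratio between 0.771 and 1.51.

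Mdc1, the adaptor that reads phosphorylated H2AX, held 45.5, 16.2 and 30.1 CPM in OcKO and 30.8, 40.4 and 39.4 CPM in Control. The OcKO libraries spread to both sides of the Control libraries, and the log2 fold change of -0.27 (SE 0.40) was 0.07 without OcKO replicate 2. The groups of Mdc1 overlapped in full.

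Rnf8, the first ubiquitin ligase at the break, held 187, 135 and 133 CPM in OcKO and 169, 147 and 153 CPM in Control. The groups overlapped, and the log2 fold change of -0.04 (SE 0.20) took the positive sign with library size alone (0.12). Of its exonic bases, 48.5% are shared with Gm28043 on the same strand, which had 22 to 57 counts in OcKO and 8 to 13 in Control. The sources used here do not state how reads in such shared exons were counted, so the level of Rnf8 is uncertain.

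Rnf168, the ligase that spreads the ubiquitin mark, held 83.2, 45.8 and 33.4 CPM in OcKO and 102, 70.7 and 60.4 CPM in Control. The highest OcKO library lay among the Control libraries and the other OcKO libraries below them. The log2 fold change was -0.52 (SE 0.38, edgeR adjusted p = 0.713), -0.98 without OcKO replicate 1 and -0.27 without OcKO replicate 3.

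Trp53bp1 was the one member whose groups did not overlap. It encodes 53BP1, which binds modified nucleosomes at breaks and favours end joining over resection. It held 330.2, 327 and 305 CPM in OcKO and 542, 422 and 380.3 CPM in Control, so every OcKO library was below every Control library. Such separation on the lower side was found for 8.67% of all tested genes, and in either direction for 19.4%. The ratio was 0.716 with an interval from 0.533 to 0.961 (log2 fold change -0.48, SE 0.18, unadjusted p = 0.0312, edgeR adjusted p = 0.373). The adjusted p ranged from 0.195 with DESeq2 to 0.618 over the 13 alternative fits, and the log2 fold change was negative in all 13. Without Control replicate 1 the log2 fold change was -0.33. Exons of Trp53bp1 overlap those of Tubgcp4 on the opposite strand over 2130 bases, 15.0% of its exonic length. Since the library kit marks no strand, reads there cannot be told apart. Tubgcp4 held 7.42, 14.4 and 11.003 CPM in OcKO and 18.9, 7.15 and 11.3 CPM in Control.

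Per exon length, the order of the 10 genes was nearly the same in both groups. H2afx led with 70.9 ± 13.2 RPKM in OcKO and 65.7 ± 5.18 RPKM in Control, followed by Rnf8 (47.8 ± 9.64 in OcKO, 49.2 ± 3.57 in Control), Rad50, Trp53bp1 (22.6 ± 0.948 in OcKO, 31.6 ± 5.91 in Control) and Rnf168 (12.1 ± 5.82 in OcKO, 17.4 ± 4.88 in Control). Mre11a, Nbn and Mdc1 (4.12 ± 1.97 in OcKO, 4.97 ± 0.713 in Control) came next. Atm (1.01 ± 0.968 in OcKO, 0.848 ± 0.789 in Control) and Chek2 (0.7002 ± 0.659 in OcKO, 0.897 ± 0.477 in Control) came last, in opposite order in the 2 groups. In OcKO libraries neighbours did not overlap between Rnf8 and Rad50, between Rad50 and Trp53bp1, between Trp53bp1 and Rnf168, and between Mdc1 and Atm, and all other neighbours did. In Control libraries neighbours overlapped between Rnf8 and Rad50, Rad50 and Trp53bp1, Mre11a and Nbn, and Chek2 and Atm. Over all tested genes, H2afx stood at the 94.5th percentile of mean RPKM, Atm at the 25.5th and Chek2 at the 22.8th.

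**Figure D4:**
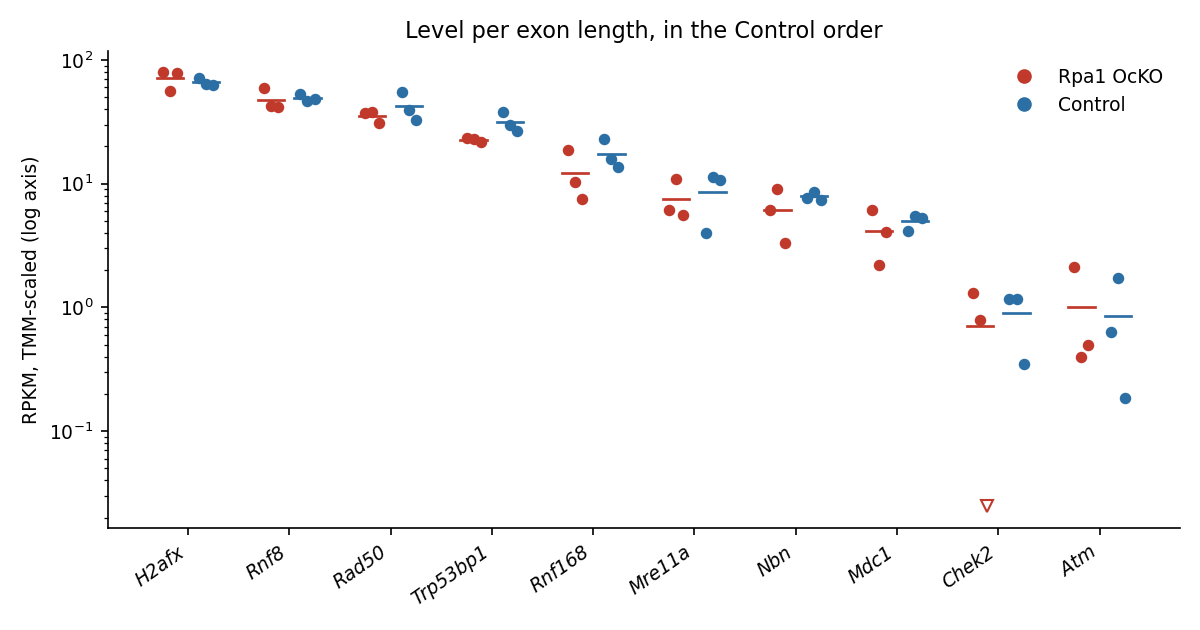
RPKM (TMM-scaled counts per kilobase of exon) of the 10 genes on a log axis, OcKO left of Control, ordered by the Control mean, with points for libraries and bars for group means. The order falls from H2afx at 65.7 RPKM in Control to Atm at 0.848 RPKM, and the open triangle marks the 3-count limit of the OcKO library with no Chek2 count.

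The genes whose log2 CPM ran most like that of Atm over the 6 libraries were Birc6 (Pearson's r of 0.998), Tex2 and Cdkl2 (both 0.987), and for Chek2 they were Rad51ap2 (0.994), Elf2 (0.992) and Hif1a (0.988). For Atm 9247 genes were searched and for Chek2 9248. These likenesses rest on 6 libraries, whose genes share depth and preparation, and are a description only. Hif1a, the oxygen-regulated transcription factor gene, held 292, 305 and 132 CPM in OcKO and 317, 298 and 234 CPM in Control, low like Chek2 in replicate 3 of each group.

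Of the wider pathway, 71 of 73 listed genes on 5 lists were tested, and 2 were called, where 0.143% of all tested genes were called and 0.137% called higher. Both were higher in OcKO and on the list of CHEK2 substrates and the p63 and p53 route. The lists were chosen with earlier results of these data known. Pmaip1, the gene of the apoptosis promoter NOXA, rose to 15.8, 22.0 and 69.2 CPM in OcKO, against 0.193, 0.0527 and 0.0864 CPM in Control, which rest on 7, 2 and 3 counts (log2 fold change 8.29, SE 0.92, edgeR adjusted p = 0.0383). Mdm2, which encodes the ligase that degrades p53, rose to 750.0, 875 and 524 CPM in OcKO, against 182, 174 and 224 CPM in Control (log2 fold change 1.89, SE 0.23, edgeR adjusted p = 0.0450). Neither was called in any of the 6 fits that leave out 1 library, with edgeR adjusted p of 0.102 to 0.194 for Pmaip1 and 0.0959 to 0.244 for Mdm2. With limma voom neither was called. Both were called with library size alone, with DESeq2 size factors, with no low-count filter, at a minimum mean of 5 CPM and by DESeq2 (adjusted p of 4.51e-23 for Pmaip1 and 5.14e-13 for Mdm2). Over all 13 alternatives the log2 fold change was 7.37 to 8.94 for Pmaip1 and 1.76 to 2.07 for Mdm2.

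On that list 16 genes were tested, 10 with a positive and 6 with a negative log2 fold change, and the median was 0.16 against 0.01 for all tested genes. Every OcKO library lay above every Control library for 4 of them, Pmaip1, Mdm2, Cdkn1a and Bbc3, and below for 2, Csnk1a1 and Plk3. Such separation was found for 10.7% of all tested genes on the higher side and 8.67% on the lower. Cdkn1a stood at 41.9 ± 50.6 CPM in OcKO and 0.428 ± 0.364 CPM in Control (edgeR adjusted p = 0.120). Trp63, which encodes p63, held 72.8, 44.99 and 34.4 CPM in OcKO and 24.5, 32.0 and 76.1 CPM in Control, with overlapping groups (log2 fold change 0.20, SE 0.48). Trp53, which encodes p53, held 34.4, 33.4 and 60.0 CPM in OcKO and 9.76, 26.1 and 47.2 CPM in Control (log2 fold change 0.62, SE 0.56). Neither was called (edgeR adjusted p of 0.937 and 0.771).

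**Figure D5:**
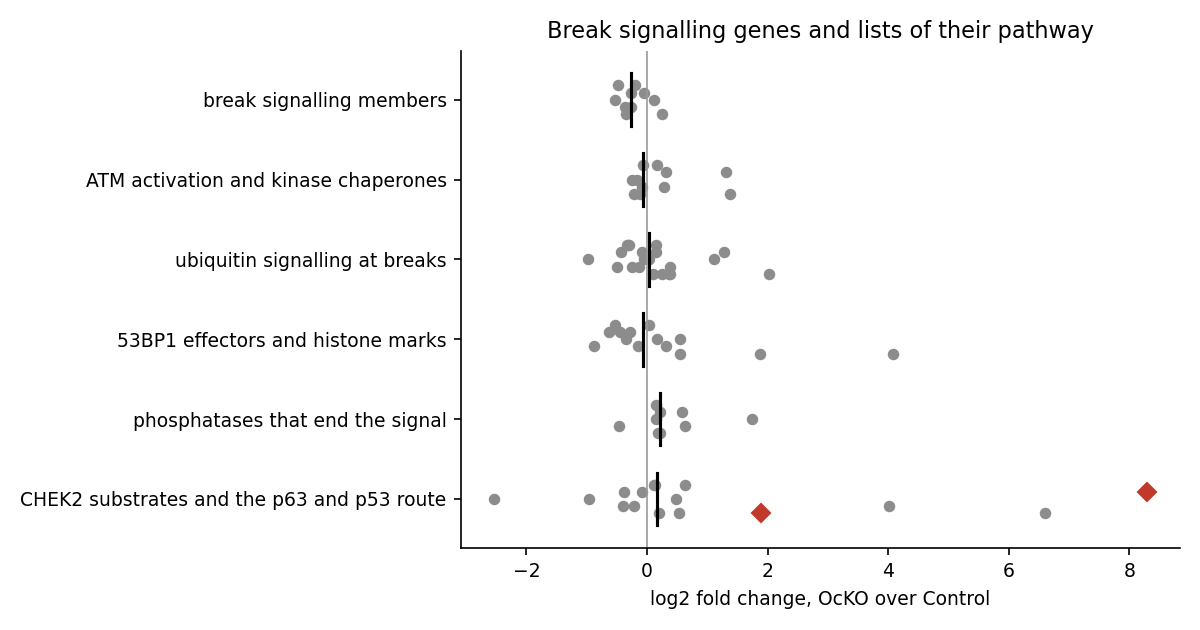
Log2 fold change (OcKO over Control) of the 10 break signalling genes, top row, and of the tested genes on 5 further lists of the pathway. Grey points were not called, red diamonds are the called Mdm2 at 1.89 and Pmaip1 at 8.29, and black bars are list medians.

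The other 4 lists had no called gene. Of 11 tested genes of ATM activation and kinase chaperones, 5 were positive and 6 negative in log2 fold change, and their median was -0.06. The smallest p among them was that of Tti2, a partner of the chaperone complex that stabilises ATM-type kinases, at 20.3, 10.6 and 11.9 CPM in OcKO and 6.07, 3.74 and 6.71 CPM in Control. All OcKO libraries of Tti2 lay above all Control libraries (log2 fold change 1.37, SE 0.51, edgeR adjusted p = 0.369). Such separation on the higher side was found for 10.7% of all tested genes.

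Ubiquitin signalling at breaks had 21 tested genes, 11 positive and 10 negative, and a median of 0.04. Ube2v2, a partner of the conjugating enzyme UBC13 that builds the ubiquitin chains of RNF8, held 32.2, 39.7 and 21.4 CPM in OcKO and 6.76, 6.62 and 9.48 CPM in Control. The groups of Ube2v2 were far apart, but the gene was not called by edgeR (log2 fold change 2.03, SE 0.39, adjusted p = 0.120) and was called by DESeq2 (adjusted p = 4.25e-05). On this list the groups did not overlap for 1 gene higher in OcKO, Ube2v2, and for 2 lower, Trip12 and Rnf169. Of all tested genes, 10.7% were separated on the higher side and 8.67% on the lower. Trip12 stood at 542 ± 32.0 CPM in OcKO and 733 ± 7.16 CPM in Control (edgeR adjusted p = 0.297). Rnf169 stood at 23.1 ± 6.71 CPM in OcKO and 32.7 ± 3.77 CPM in Control (edgeR adjusted p = 0.661).

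The 14 tested genes of 53BP1 effectors and histone marks were 7 positive and 7 negative, with a median of -0.06. Kmt5c, a methyltransferase of the histone residue that 53BP1 reads, held 4.59, 2.73 and 10.9 CPM in OcKO and 0.110, 0.897 and 0.0576 CPM in Control (log2 fold change 4.08, SE 1.31, edgeR adjusted p = 0.284, DESeq2 adjusted p = 0.0177). Rif1, the main effector bound by 53BP1, stood at 86.3 ± 18.1 CPM in OcKO and 125 ± 10.4 CPM in Control, and was chosen for mention after its values were seen (log2 fold change -0.53, SE 0.22, edgeR adjusted p = 0.415). On this list the groups did not overlap for 2 genes lower in OcKO, Rif1 and Dclre1c, and for 2 higher, Kmt5c and Ctc1, where 8.67% of all tested genes were separated on the lower side and 10.7% on the higher. Dclre1c, which encodes the nuclease Artemis, stood at 11.4 ± 3.12 CPM in OcKO and 21.1 ± 1.49 CPM in Control (log2 fold change -0.88, edgeR adjusted p = 0.429). Ctc1, a subunit of the CST complex, stood at 55.3 ± 19.9 CPM in OcKO and 15.1 ± 9.66 CPM in Control (log2 fold change 1.87, edgeR adjusted p = 0.296). Both were likewise chosen after their values were seen.

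Of 9 tested genes on the phosphatase list, 8 were positive and 1 negative, with a median of 0.22. Ppp5c held 64.8, 21.1 and 36.2 CPM in OcKO and 8.55, 21.1 and 6.74 CPM in Control, with OcKO replicate 2 and Control replicate 2 nearly equal (log2 fold change 1.75, SE 0.58, edgeR adjusted p = 0.303, DESeq2 adjusted p = 0.0473). Of the 71 tested genes on the 5 lists, 9 were higher and 3 lower at an unadjusted p under 0.05, against 5.93% higher and 5.21% lower of all tested genes.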

How the data were processed

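The deposited values are raw counts per gene, given once for the series and once per sample. The submitters' processing notes name Trimmomatic 0.36, STAR 2.5.2b, Subread 1.5.2 (featureCounts) and the build GRCm38. The annotation release and the settings for strand and for reads with several matches are not stated there. Exon lengths are those of the deposited files. Table and sample files differed in 0 values.

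Counts were tested with edgeR 4.0.16 under R 4.3.3, by its quasi-likelihood functions glmQLFit and glmQLFTest with TMM scaling, filterByExpr and the group as the only term, adjusted over 16060 genes and called under 0.05. The SE comes from the size of the log2 fold change divided by the root of F, and the 95% interval uses the t distribution of the same fit. Log2 CPM used a prior count of 2. Values with 1 number per library were compared by exact permutation tests, two-sided. Alternatives used DESeq2 1.42.0, limma 3.58.1 voom, other scaling and filters, a replicate block, and leaving out each library. The fit was checked on simulated data.

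Genes named by rule are the 10 members, neighbours that share exons or start within 1000 bases, the 3 genes most like Atm and Chek2 in pattern (mean of at least 5 CPM), and from each list up to 3 called genes or else the one with the smallest p. Trp63 and Trp53 were added as genes of the route. Further genes of the lists, such as Rif1, Dclre1c, Ctc1, Cdkn1a, Trip12 and Rnf169, were named after their values were seen. Members and lists were chosen with earlier results of these data known. No libraries were duplicates (lowest chi-square per degree of freedom 114.5). Each library is 1 mouse, and limits from counts cover counting error only, since PCR copies of a molecule are not told apart.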

Additional observations from a re-analysis of the deposited data

How the results depend on the processing

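In all 13 alternative fits 0 of the 10 break signalling genes were called, higher or lower. The members' median log2 fold change was between -0.31 and -0.10 over the 7 fits with all libraries and between -0.43 and -0.04 over the 6 that leave out 1. The 1 member at an unadjusted p under 0.05 was lost with library size alone (0) and with the replicate block (0), and over the fits without 1 library the count was 0 to 1.

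Over all genes, 22 higher and 1 lower calls became 64 and 8 at a minimum mean of 5 CPM (which left 9 members, without Chek2), 477 and 272 with DESeq2 and 0 and 1 with limma voom. With the replicate block they were 0 and 0. The labels state no pairing of same-numbered libraries. Deviations of same-numbered libraries correlated at -0.037 to -0.045 across genes in 3 pairs, which cannot settle it with 3 libraries per group. Neither Pmaip1 nor Mdm2 was called under the block. Without 1 library the calls were 0 to 4 higher and 0 to 2 lower.

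Chek2 was at -2.19 with limma voom and -1.61 with the replicate block. Rnf8 took 0.12 with library size alone, and Hscb -0.0087 with no low-count filter. Over the fits without 1 library, log2 fold changes ran from -0.92 to 1.33 for Atm, -1.18 to 0.23 for Chek2, -0.54 to 0.068 for Mre11a, -0.68 to 0.069 for Mdc1, -0.23 to 0.072 for Rnf8, -0.081 to 0.22 for Hscb, -0.27 to 0.57 for Ankrd49 and -0.44 to 0.24 for Tubgcp4. The between-group differences in log2 ratio ran from -0.52 to 0.57 for Rad50 to Mre11a, from -0.062 to 0.52 for Rad50 to Nbn and from -0.11 to 0.62 for Mre11a to Nbn. The causes were not tested. Atm had 67 to 961 counts per library and Chek2 0 to 172.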

Other observations

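ATM belongs to a family of large kinases related to PI3-kinases, and its 4 other catalytic members and the pseudokinase Trrap were looked at after the low level of Atm had been seen. Per exon length Mtor, the growth kinase, was the most abundant, at 8.78 ± 1.90 RPKM in OcKO and 10.97 ± 1.92 RPKM in Control (SD, n = 3). Atr, the kinase that answers to single-stranded DNA bound by RPA, stood at 3.37 ± 1.16 RPKM in OcKO and 2.39 ± 0.955 RPKM in Control. Prkdc, the end-joining kinase, stood at 1.71 ± 0.721 RPKM in OcKO and 1.14 ± 0.185 RPKM in Control. Smg1, a kinase of nonsense-mediated decay, stood at 0.775 ± 0.176 RPKM in OcKO and 1.35 ± 0.445 RPKM in Control, with all OcKO libraries below all Control libraries. On the lower side 8.67% of all tested genes were separated in this way. Trrap stood at 1.46 ± 0.839 RPKM in OcKO and 1.56 ± 0.583 RPKM in Control. The Atm level of 1.01 RPKM in OcKO and 0.848 RPKM in Control was thus near that of Prkdc, Smg1 and Trrap. None was called (edgeR adjusted p of 0.481 to 0.971).

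Chek1, the effector kinase of ATR, was far more abundant than Chek2. It held 519, 729 and 321 CPM in OcKO and 490.2, 431 and 556 CPM in Control, or 113 ± 44.0 RPKM in OcKO and 106 ± 13.6 RPKM in Control, against 0.7002 RPKM of Chek2 in OcKO and 0.897 RPKM in Control. The groups of Chek1 overlapped (log2 fold change 0.09, SE 0.29, edgeR adjusted p = 0.956).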
